A study of Rattus norvegicus with 12 samples.

Results

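The genes described here encode 9 enzymes that carry squalene to cholesterol, namely Fdft1, Sqle, Lss, Cyp51, Tm7sf2, Msmo1, Nsdhl, Hsd17b7 and Dhcr7, out of 30562 genes in the deposited counts. They were chosen by symbol, as steps of 1 pathway. The count tables carry Ensembl identifiers only, so 3 of the genes (Sqle, Cyp51 and Nsdhl) were found by their coordinates in mRatBN7.2, the rat genome build of the counts, and the other 6 by joining the mean normalized count of each symbol, as the study lists it for genes called in CTK-2 versus CTL, to the counts. All 9 are on that list, so they were already called in CTK-2 versus CTL, and their values in that comparison are given as a description, with no test. The comparison of CTK2+GAL with GAL shares no library with it and holds the tests.

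Primary oligodendrocyte precursor cells (OPCs) were grown from the cortex of wild-type rat pups of both sexes, pooled, and were shaken off mixed glial cultures after a first shake had removed microglia. When the cells were switched to differentiating medium, they received 3 cytokines (2 ng/mL of IFN-γ, of IL-1β and of TNF-α) or none, then 6 h later 10 nM galinex, an agonist of the receptor GPR17, or its solvent DMSO. RNA was taken 24 h after galinex and sequenced, with 3 libraries in each of 4 groups. CTL received neither cytokines nor galinex, GAL received galinex, CTK-2 received the cytokines, and CTK2+GAL received the cytokines and then galinex. The labels do not state whether the 3 libraries of a group came from separate cultures, so every p-value measures the spread between these libraries, which may in part be technical. Library totals ran from 5207182 to 6169733 counts in CTL, from 2600797 to 6064182 in GAL, from 4718825 to 5475929 in CTK-2 and from 5080780 to 8978185 in CTK2+GAL. The 9 genes had between 89 counts (Tm7sf2 in CTK2+GAL replicate 1) and 3395 counts (Cyp51 in GAL replicate 2) in a library.

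Cholesterol is built from acetyl-CoA by way of mevalonate, and the step that makes squalene commits the chain to sterols. Squalene is then oxidized, folded into lanosterol and stripped of methyl groups and double bonds on the membrane of the endoplasmic reticulum, and the genes of the chain share control by the sterol-sensing SREBP factors. Myelin is rich in cholesterol, and oligodendrocytes make most of what they need themselves, because blood lipoproteins do not pass into the brain.

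The CTL and GAL libraries were not alike within their groups. The 8 interferon response genes with a symbol (Gbp2, Gbp4, Irf1, Cxcl10, Cxcl9, Tap1, Ifit2 and Ifit3) summed to 294 CPM (the count scaled to a common library size after TMM normalization) in CTL replicate 3, against 12.4 and 11.9 CPM in CTL replicates 1 and 2. In GAL replicate 3 they summed to 257 CPM, against 10.9 and 9.20 CPM in GAL replicates 1 and 2. Tap1, which encodes a peptide transporter of the endoplasmic reticulum, made up the largest part of this sum in every library. The cytokine-treated libraries lay between 1955 and 2081 CPM. CTL replicate 3 was the lowest CTL library in 7 of the 9 enzymes, a place it held in 34.3% of all tested genes, and GAL replicate 3 was the lowest GAL library in 4 of the 9, against 31.3% of all tested genes. The part of that interferon signal in the enzyme levels was not tested, and the fold changes are therefore also given without both libraries.

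Read per kilobase of annotated exon, the only scale on which the genes can be set beside each other, the enzymes covered a wide range in CTL. Cyp51 stood highest at 166 ± 8.79 CPM per kb (SD, n = 3), followed by Msmo1 at 165 ± 5.04 and Sqle with a range of 129 to 136. Dhcr7 came next at 94.2 ± 4.04 and Lss at 55.6 ± 1.03 CPM per kb. The other 4 genes lay close together, with Fdft1 at 37.6 ± 1.36, Hsd17b7 at 35.8 ± 2.55, Tm7sf2 at 34.8 ± 6.02 and Nsdhl at 33.2 ± 3.06 CPM per kb. The ranges of Cyp51 and Msmo1 over the CTL libraries overlapped, as did those of each neighbouring pair among the last 4, whereas Msmo1, Sqle, Dhcr7 and Lss were each separated from the next by their full range. Fdft1 has 12374 bases of annotated exon, the most of the 9, and its level per length falls short if parts of them are not used in these cells. Cyp51 was above 97.8% and Nsdhl above 84.1% of the 13348 tested genes per length in CTL.

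**Figure D1:**
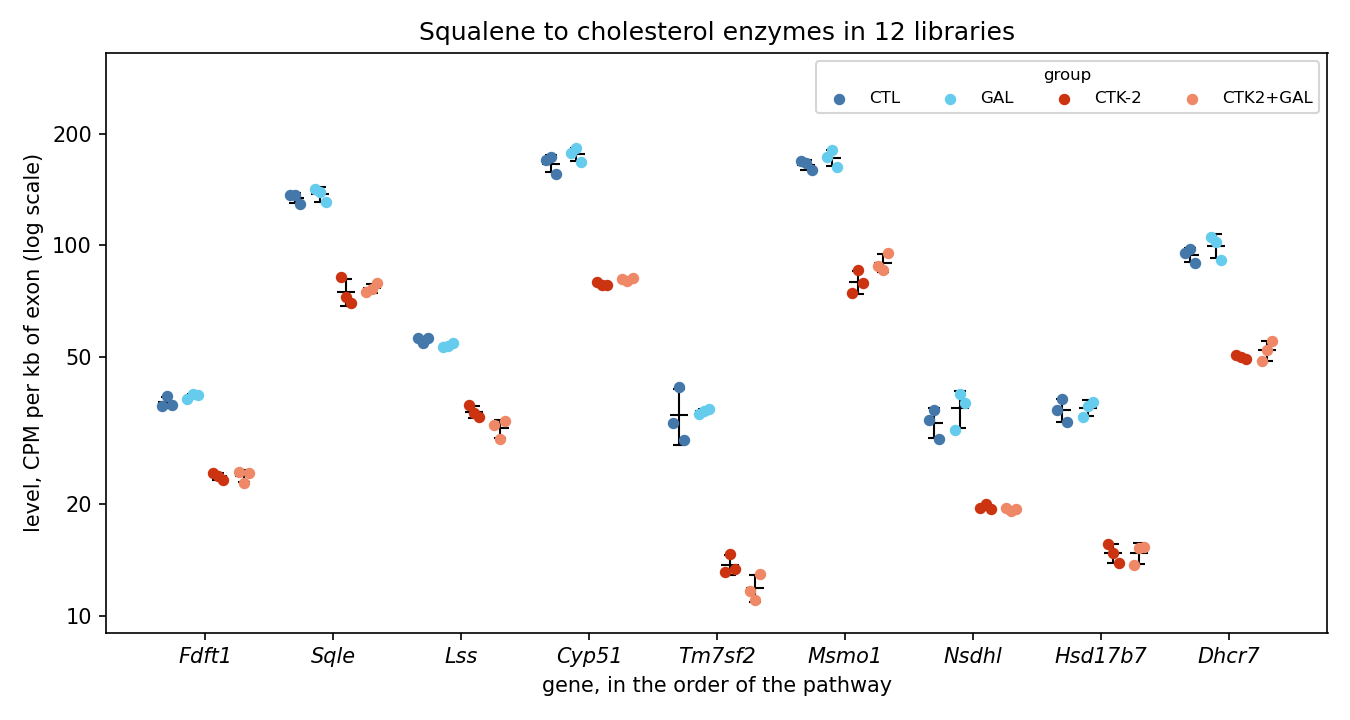
Levels of the 9 enzymes, in the order of the pathway, in CPM per kb of exon on a log scale. Each point is 1 library, black dashes and bars are the mean and SD of 3 libraries, and colours give the group. In all 9 genes the cytokine-treated libraries lie below the libraries without cytokines, for example at 81.0, 80.2 and 81.8 CPM per kb in CTK2+GAL and 177, 182 and 168 in GAL for Cyp51.

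The main question was how the enzymes responded to the cytokines when galinex was present on both sides, in CTK2+GAL versus GAL. All 9 genes were lower in CTK2+GAL by the thresholds of the study, which ask for an adjusted p no larger than 0.05 and a log2 fold change of 0.59 or more in size. Among all 13348 tested genes 5.74% were lower by that rule, and among the 773 genes that were lower in CTK-2 versus CTL, the nearer reference for genes with a symbol, 72.2% were. Every CTK2+GAL library lay below every GAL library in 9 of the 9 genes, against 24.0% of all tested genes. The log2 fold changes ran from -1.57 for Tm7sf2 to -0.72 for Fdft1, with a median of -0.93 over the 9 and of 0.01 over all tested genes. The 766 genes called lower had a median of -0.87, so the enzymes fell about as much as the other genes that fell. In bulk RNA, fewer cells of a type and less RNA per cell cannot be told apart.

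**Figure D2:**
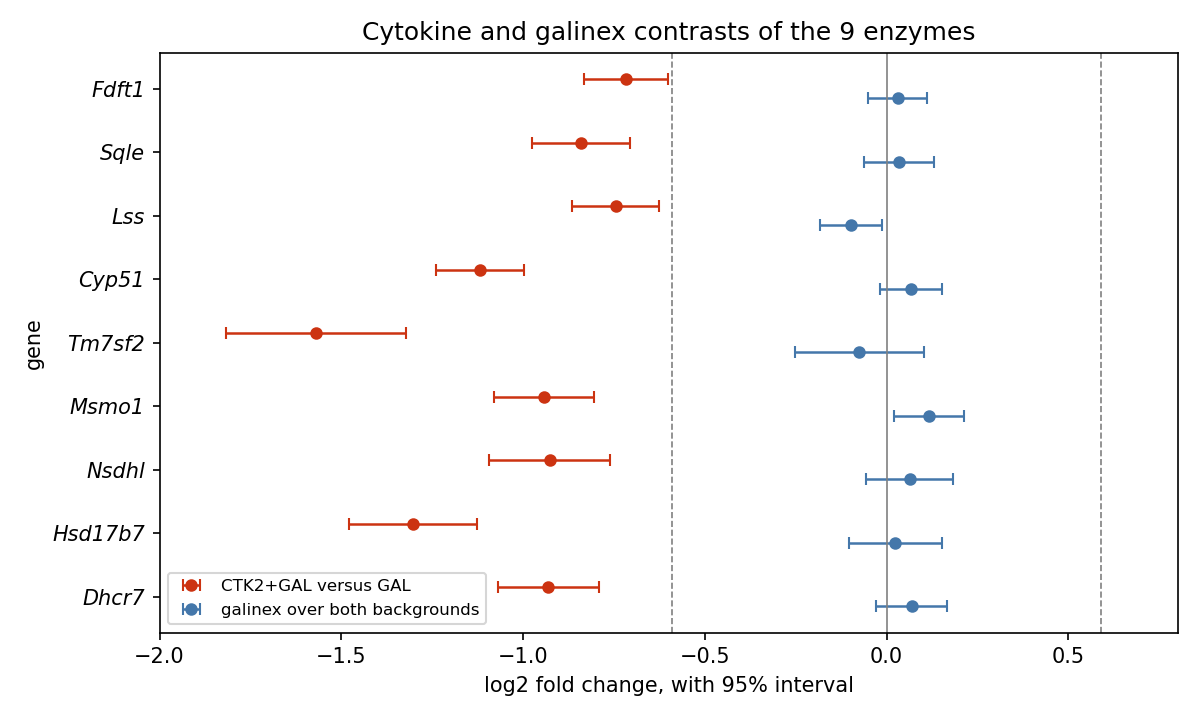
Log2 fold changes of the 9 enzymes with their 95% intervals, for CTK2+GAL versus GAL (red) and for galinex averaged over both backgrounds (blue), from 1 edgeR fit of 12 libraries. Dashed lines mark -0.59 and 0.59, and the solid line marks 0. Every red interval lies below -0.59, the nearest at -0.60 for Fdft1, and the blue intervals lie between -0.25 and 0.21.

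The chain opens with Fdft1, squalene synthase, which joins a pair of farnesyl diphosphate molecules head to head. The gene (ENSRNOG00000021314) lies on chromosome 15 from 37412146 to 37440287 on the minus strand. Fdft1 reached 476, 491 and 487 CPM in GAL replicates 1, 2 and 3, and 302, 282 and 299.7 CPM in the CTK2+GAL replicates. The groups were far apart relative to their spread, and the shallow GAL replicate 1 sat with the other GAL libraries. Fdft1 changed by a log2 value of -0.72 (standard error, SE, 0.055, lower in 3 of 3 libraries, adjusted p = 6.9e-09 by edgeR, quasi-likelihood with Benjamini-Hochberg), which was the mildest decrease of the 9. Without cytokines and galinex it had 455, 485 and 458 CPM in CTL, and the CTK-2 libraries had 301, 295 and 287 CPM.

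Sqle, squalene epoxidase (ENSRNOG00000009550), adds the oxygen that later becomes the hydroxyl group of cholesterol and is regarded as a control point of the pathway. It lies on chromosome 7 from 90868011 to 90883618 on the plus strand. The GAL replicates held 397, 388 and 364 CPM of Sqle and the CTK2+GAL replicates 208, 212 and 220.5 CPM. GAL replicate 3 was the lowest of its group and still stood clear of every cytokine-treated library. For Sqle the log2 fold change came to -0.84 (SE 0.065, lower in 3 of 3 libraries, adjusted p = 7e-09 by edgeR, quasi-likelihood with Benjamini-Hochberg). Sqle had 380.5, 380.2 and 361 CPM in CTL and 229, 203 and 195 CPM in CTK-2, where replicate 1 was the highest and the spread, 209 ± 17.8 CPM (SD, n = 3), was wider than in CTK2+GAL.

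Lss, lanosterol synthase (ENSRNOG00000054549), folds the epoxide into the 4 rings of lanosterol. It is annotated on chromosome 20 from 12092774 to 12118762 on the minus strand. Lss stood at 309, 311 and 316 CPM in the GAL replicates and at 189.7, 174 and 194 CPM in those of CTK2+GAL, a log2 fold change of -0.74 (95% interval -0.86 to -0.62). The GAL libraries were within a few CPM of each other, the tightest of the 9 genes in that group with a coefficient of variation of 1.17%. In CTL it was at 327, 316 and 326 CPM and in CTK-2 at 215, 204 and 199 CPM. CTK-2 replicates were all above the CTK2+GAL replicates in this gene.

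Cyp51, the cytochrome P450 that removes the first methyl group from lanosterol (ENSRNOG00000007234), lies on chromosome 4 from 30036865 to 30055410 on the plus strand. Cyp51 had 551, 568 and 522 CPM in GAL and 252, 249.6 and 254 CPM in CTK2+GAL. The cytokine-treated replicates were almost equal, with a coefficient of variation of 0.94% in CTK2+GAL against 4.21% in GAL. In log2 terms the difference was -1.12 (SE 0.058, lower in 3 of 3 libraries, adjusted p = 3.4e-11 by edgeR, quasi-likelihood with Benjamini-Hochberg), the smallest p of the 9 and the 22nd smallest of the 766 genes called lower. The values without galinex were 527, 536 and 485 CPM in CTL and 247, 242 and 243 CPM in CTK-2.

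Tm7sf2, one of the enzymes able to reduce the double bond that Cyp51 leaves in the ring system (ENSRNOG00000020989), lies on chromosome 1 from 203355931 to 203360270 on the minus strand. Tm7sf2 was at 51.9, 52.8 and 53.5 CPM in GAL and 17.3, 16.3 and 19.2 CPM in CTK2+GAL. The decrease was the steepest of the 9, at a log2 fold change of -1.57 (SE 0.12, lower in 3 of 3 libraries, adjusted p = 5e-09 by edgeR, quasi-likelihood with Benjamini-Hochberg), which leaves 33.7% of the GAL level. Its counts in CTK2+GAL were 89, 92 and 174, and it had the widest standard error of the 9. CTL was uneven, at 49.1, 61.5 and 44.2 CPM with a coefficient of variation of 17.3%, and CTK-2 had 19.4, 21.8 and 19.8 CPM. Lbr, whose product is known for the same reaction, has no symbol in the sources used here.

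The next 3 enzymes take off the methyl groups at carbon 4 of the sterol and are known to work as 1 complex. Msmo1, the oxidase that starts each round (ENSRNOG00000032297), lies on chromosome 16 from 24980697 to 24998016 on the plus strand. Msmo1 was at 296, 309 and 278 CPM in GAL and at 149.9, 147 and 162 CPM in CTK2+GAL, a log2 fold change of -0.94 (95% interval -1.08 to -0.80). CTK2+GAL replicate 3 was the highest of its group, and all CTK2+GAL libraries were well under the GAL libraries. In the groups without galinex it had 288, 284 and 272 CPM in CTL and 127, 147 and 135 CPM in CTK-2.

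Nsdhl, the dehydrogenase of that complex (ENSRNOG00000057814), lies on chromosome X from 150775080 to 150807142 on the plus strand. Nsdhl held 99.6, 124 and 118 CPM in GAL, where replicate 1 was the lowest, and 61.1, 60.1 and 60.8 CPM in CTK2+GAL. The libraries without cytokines were spread out and the cytokine-treated ones were not, with coefficients of variation of 11.3% in GAL and 0.89% in CTK2+GAL. The log2 fold change of Nsdhl was -0.93 (95% interval -1.09 to -0.76), and it had the largest adjusted p of the 9, 2.9e-08 by edgeR, quasi-likelihood with Benjamini-Hochberg, lower in 3 of 3 libraries. CTL stood at 106, 113 and 93.9 CPM and CTK-2 at 61.4, 62.8 and 60.9 CPM.

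Hsd17b7, the ketosteroid reductase that ends each round (ENSRNOG00000002826), lies on chromosome 13 from 82173179 to 82190017 on the minus strand. Hsd17b7 had 60.0, 64.4 and 65.9 CPM in GAL and 23.9, 26.6 and 26.8 CPM in CTK2+GAL. It fell further than the other members of the complex, with a log2 fold change of -1.30 (SE 0.084, lower in 3 of 3 libraries, adjusted p = 7.4e-10 by edgeR, quasi-likelihood with Benjamini-Hochberg) and a 95% interval (-1.48 to -1.13) that does not reach those of Msmo1 and Nsdhl. Read inside each library, the ratio of Hsd17b7 to Nsdhl counts was 0.603, 0.517 and 0.561 in GAL and 0.390, 0.442 and 0.440 in CTK2+GAL. The Hsd17b7 transcript was thus lower relative to Nsdhl in CTK2+GAL, whatever the scaling of the libraries. The ratio itself was not tested. The groups without galinex had 62.5, 66.9 and 58.0 CPM in CTL and 27.1, 25.8 and 24.2 CPM in CTK-2.

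Dhcr7, which reduces 7-dehydrocholesterol to cholesterol at the end of the chain (ENSRNOG00000020776), lies on chromosome 1 from 199015081 to 199031055 on the plus strand. Dhcr7 was present at 288, 279.9 and 249.5 CPM in GAL and 134, 142 and 151 CPM in CTK2+GAL, a log2 fold change of -0.93 (95% interval -1.07 to -0.79). GAL replicate 3 was the lowest of its group and CTK2+GAL replicate 3 the highest of its own, and the groups stayed separate by a wide margin. CTL held 261, 267 and 245 CPM and CTK-2 138, 136 and 135 CPM. Of the 9 genes it came closest to the shared profile, with a root-mean-square difference of 0.043 log2 units over 12 libraries from the median profile of the enzymes.

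The decreases were of unequal size along the chain. The steps up to lanosterol, Fdft1, Sqle and Lss, had the 3 smallest decreases, between -0.84 and -0.72, and the steps after it lay between -1.57 and -0.93. This order did not hold in CTK-2 versus CTL, where Nsdhl, a later step, was at -0.75 and Sqle at -0.84. The 95% interval of Sqle (-0.98 to -0.70) overlapped those of Msmo1, Nsdhl and Dhcr7, and that of Fdft1 (-0.83 to -0.60) did not reach those of Cyp51, Hsd17b7 and Tm7sf2. The ratio of Tm7sf2 to Fdft1 counts inside a library was 0.109, 0.108 and 0.110 in GAL and 0.0572, 0.0578 and 0.0642 in CTK2+GAL. The summed level per length of the 9 genes was 786 ± 26.6 CPM per kb in GAL and 401 ± 13.5 in CTK2+GAL (SD, n = 3).

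The order of the genes per length differed between libraries with and without cytokines. Cyp51 was the highest in 5 of the 6 libraries without cytokines and Msmo1 in 1, whereas Msmo1 was the highest in 5 of the 6 cytokine-treated libraries and Sqle in 1. Tm7sf2, which held changing places from the sixth to the last without cytokines, was the lowest of the 9 in 6 of the 6 cytokine-treated libraries. Dhcr7 was the fourth and Lss the fifth in every library. In CTK2+GAL the ranges of all neighbours in the order were separate. Cyp51 had a lowest value of 80.2 CPM per kb there and Sqle, next below it, a highest value of 79.0 CPM per kb. In CTK-2 the ranges of Msmo1 and Cyp51, of Cyp51 and Sqle, and of Hsd17b7 and Tm7sf2 overlapped, and those of the other neighbours did not.

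In CTK-2 versus CTL, the comparison behind the symbols, the values of the 9 genes lay side by side with those above, and they are a description. All 9 were lower in CTK-2 by the thresholds used above, as the choice of symbols makes likely, and 5.79% of all tested genes were. Their log2 fold changes ranged from -1.33 (Tm7sf2) to -0.65 (Lss). Nsdhl stood at -0.75 there and at -0.93 in CTK2+GAL versus GAL, and Tm7sf2 at -1.33 and -1.57. Msmo1 had the larger decrease without galinex, -1.05 against -0.94. None of these differences passed the test of the interaction below.

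Without CTL replicate 3 and GAL replicate 3, the libraries with raised interferon response genes, all 9 enzymes were still called lower in CTK2+GAL versus GAL. Their log2 fold changes then ranged from -1.56 for Tm7sf2 to -0.72 for Fdft1, and Dhcr7 moved most, from -0.93 to -0.99. In CTK-2 versus CTL those of the 9 lay between -1.43 and -0.64. The decrease was thus about as large without these libraries as with them.

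Galinex was examined as the mean of its effects with and without cytokines, a contrast that uses every library. No gene was called among the 13348 tested (0%) by edgeR (quasi-likelihood), with 822 genes at an unadjusted p under 0.05, and DESeq2 also called 0. Of the 9 enzymes 0 were called and 2 had an unadjusted p under 0.05, Msmo1 and Lss, in opposite directions. Msmo1 had a log2 fold change of 0.12 (95% interval 0.02 to 0.21, adjusted p = 0.77 by edgeR, quasi-likelihood with Benjamini-Hochberg). For Lss it was -0.10 (95% interval -0.18 to -0.01, adjusted p = 0.78 in the same test). The intervals of all 9 genes lay between -0.25 and 0.21, so a level with galinex of under 83.9% or over 116% of the level without it was outside the interval of every enzyme.

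Taken by background, GAL versus CTL called 0% and CTK2+GAL versus CTK-2 also 0% of the 13348 genes by edgeR (quasi-likelihood) and 0 by DESeq2, with 574 and 545 genes at an unadjusted p under 0.05. Both share a group with CTK-2 versus CTL, in which the 9 enzymes were already called, so their values are not independent of it. In GAL versus CTL the log2 fold changes of the enzymes ran from -0.05 for Lss to 0.15 for Nsdhl, with intervals between -0.17 and 0.31. With 1 library left out Nsdhl lay between 0.09 and 0.22. Tm7sf2, at 0.04, turned to -0.05 without CTL replicate 3 and rose to 0.185 without CTL replicate 2. Hsd17b7, at 0.036, turned to -0.011 without CTL replicate 3. In 1 of the 9, Lss, all GAL libraries were below all CTL libraries, where 8.32% of all tested genes showed no overlap. Compared with the CTL library of the same number, every GAL library was higher in Fdft1, Sqle, Cyp51, Msmo1 and Dhcr7 and lower in Lss. Nsdhl, Hsd17b7 and Tm7sf2 went both ways. The share of all tested genes with such an order was not computed, and the labels do not give same-numbered libraries as pairs. No effect of galinex can therefore be read from this order. With the replicate number as a block no gene was called. In CTK2+GAL versus CTK-2 the log2 fold changes of the enzymes ran from -0.19 for Tm7sf2 to 0.17 for Msmo1, with intervals between -0.48 and 0.31. Of the 9, 2 had an unadjusted p under 0.05 by edgeR (quasi-likelihood), against 4.08% of all tested genes. These were Lss (95% interval -0.27 to -0.03) and Msmo1 (0.03 to 0.31), in opposite directions, and neither was called. There Lss and Tm7sf2 were lower and Cyp51 was higher in all CTK2+GAL libraries than in all CTK-2 libraries, 3 of the 9 genes against 11.5% of all tested genes. For Cyp51 that gap separated 252, 249.6 and 254 CPM from at most 247 CPM, a log2 fold change of 0.05 (95% interval -0.07 to 0.17).

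Whether galinex altered the response to cytokines is the interaction, the log2 fold change of CTK2+GAL versus GAL minus that of CTK-2 versus CTL. All 9 enzymes were already called in CTK-2 versus CTL, so their interaction values are biased toward a weaker response with galinex. Of the 9 values 8 lay below 0, with a median of -0.037, against 0.003 over all tested genes. The share of all tested genes below 0 was not computed. It was called in 0% of the 13348 genes by edgeR (quasi-likelihood) and in 0 by DESeq2, with 376 genes at an unadjusted p under 0.05, none of them an enzyme of this chain. Tm7sf2 had the lowest value of the 9, -0.24 (95% interval -0.59 to 0.12, and -0.38 to -0.14 with 1 library left out), and Msmo1 the highest, 0.10 (95% interval -0.09 to 0.30). The interval of Sqle ran from -0.19 to 0.19. The wide interval of Tm7sf2, which reaches a log2 value of -0.59, shows how little its counts can tell about such a difference.

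The other genes of sterol supply that carry a symbol moved with the enzymes or against them. Of 37 genes on 6 lists 15 had a symbol, which again means that they had been called in CTK-2 versus CTL, and in CTK2+GAL versus GAL 13 of the 15 were lower and 2 higher. Lower genes made up 5.74% of all tested genes and 72.2% of those lower in CTK-2 versus CTL, and higher genes 11.7% of all and 83.9% of those higher there. All 8 genes of the mevalonate arm, from acetyl-CoA to farnesyl diphosphate, were lower, where 72.2% is the share for genes lower in CTK-2 versus CTL and 5.74% that for all tested genes. Their log2 fold changes had a median of -0.95, beside -0.93 for the 9 enzymes and 0.01 for all tested genes. Hmgcs1, the synthase of HMG-CoA, had -1.23, Acat2, the thiolase at the entry, had -1.24, and Fdps, which makes the substrate of Fdft1, had -1.03.

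Insig1, which holds the SREBP machinery in the endoplasmic reticulum and is itself an SREBP target, was the only one of 7 control genes with a symbol and had a log2 fold change of -1.03. Among the genes of uptake and transport, Stard4, a sterol carrier, was lower at -0.98, and so was Lipa, the lysosomal lipase, at -0.85. Of the 5 genes of LXR and export only 2 had a symbol, and these went the other way. Nr1h2, one of the LXR receptors, had a log2 value of 0.96 (SE 0.087), and Abcg1, a sterol exporter and LXR target, had 1.45 (SE 0.15). No gene of the list of esters and oxysterols had a symbol. For galinex over both backgrounds 0 of the 15 genes were called.

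Among the 13339 tested genes outside the 9, those whose log2 CPM profile over the 12 libraries lay nearest to the median profile of the enzymes were Tspan3, Plaa, Sh3gl3, Tgfa and Dstyk. Tspan3, a tetraspanin, differed from it by a root mean square of 0.050 log2 units, and the other 4 by 0.062 to 0.066. Among the enzymes themselves this difference ran from 0.043 for Dhcr7 and 0.065 for Msmo1 to 0.186 for Hsd17b7 and 0.287 for Tm7sf2, and its median over the genes outside the 9 was 0.518. Tspan3 had 794 ± 28.7 CPM in GAL and 429.8 ± 5.81 CPM in CTK2+GAL (SD, n = 3). Sh3gl3, an endophilin, had a log2 fold change of -0.93, and Tgfa, a growth factor, had -0.97.

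Markers of the cell types in the cultures moved between the same groups. Pdgfra, the growth factor receptor of oligodendrocyte precursors, was at 413 ± 38.6 CPM in GAL and 702 ± 49.4 in CTK2+GAL (SD, n = 3), a log2 fold change of 0.77. The 3 microglial genes with a symbol out of 9 (Csf1r, P2ry12 and C1qc) summed to 3.10, 3.18 and 9.44 CPM in GAL and to 17.5, 18.4 and 18.3 CPM in CTK2+GAL, with P2ry12 making up the largest part in CTK2+GAL at 10.3, 10.1 and 9.40 CPM and none of the 3 at 0 in any library. Of these P2ry12 and C1qc were called higher in CTK2+GAL versus GAL and Csf1r was not. All markers with a symbol had already been called in CTK-2 versus CTL. Genes called higher in CTK2+GAL versus GAL made up 11.7% of all tested genes and 83.9% of those higher in CTK-2 versus CTL. The 3 microglial genes summed to 2.06, 4.37 and 8.74 CPM in CTL and to 21.1, 16.5 and 16.3 CPM in CTK-2. Tubb3, the 1 neuronal gene with a symbol, had 86.6 ± 10.3 CPM in GAL and 175 ± 5.05 in CTK2+GAL (SD, n = 3), and Col1a2, the 1 fibroblast gene, had 1.94, 1.34 and 1.72 CPM in GAL and 4.85, 5.32 and 6.20 in CTK2+GAL. No astrocyte gene of the list had a symbol. The part of these shifts in the decrease of the enzymes was not tested.

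Since the enzymes moved together, the 250 bases before the start of each gene were searched in RefSeq's promoters of build GRCr8, which hold 7 of the 9 genes (Fdft1 and Sqle are not among them). TCACNCCAC, the letters of a sterol regulatory element, was found on either strand in 0 of the 7 and in 0.974% of all 33469 promoters, which says only that these letters are not in these windows. CCAAT, the box known to bind NF-Y, was found on either strand in 5 of the 7 (Lss, Tm7sf2, Msmo1, Nsdhl and Hsd17b7) and in 34.0% of all promoters. Nsdhl held it 5 times and Msmo1 and Hsd17b7 each 3 times. In Hsd17b7 the box at -25 to -21 lies inside the gene as RefSeq annotates it, which begins ahead of the start used here. GGGCGG, the GC box, was found in 6 of the 7, all but Nsdhl, and in 30.5% of all promoters. In the 9 other pathway genes with a promoter, CCAAT was found in 7, GGGCGG in 6 and TCACNCCAC in 0. These counts describe letters, not binding, and no test was made of them.

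**Figure D3:**
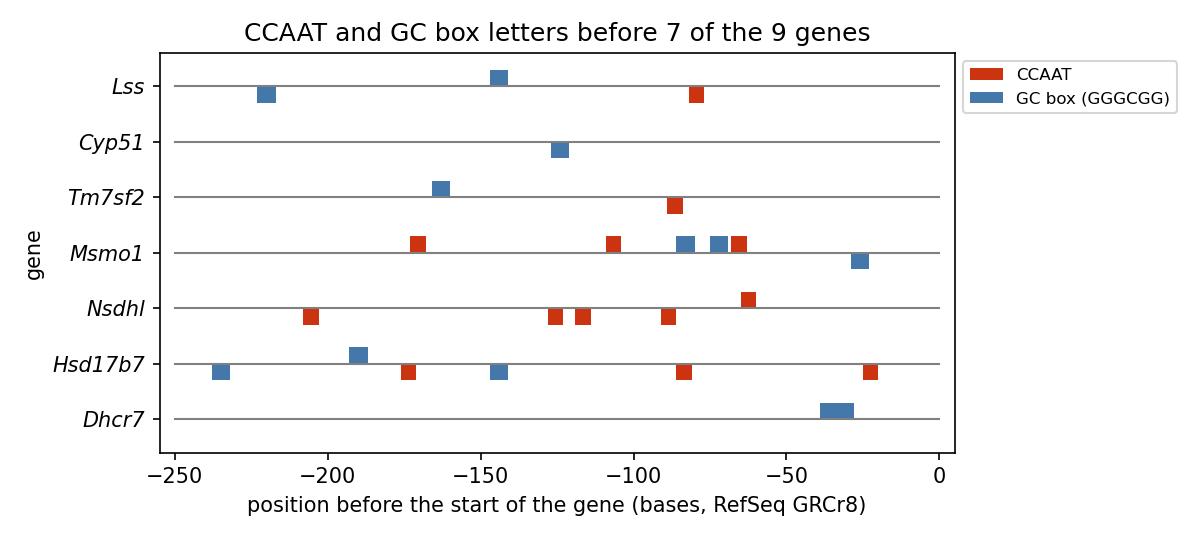
Positions of CCAAT (red) and GGGCGG (blue) in the 250 bases before the start of the 7 genes with a promoter in RefSeq's table, build GRCr8. Boxes above a line are on the strand of the gene and boxes below it on the opposite strand. In Nsdhl, Tm7sf2 and Hsd17b7 the annotated gene begins ahead of the start used here. CCAAT lies in 5 of the 7 windows and GGGCGG in 6.

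Stretches of Msmo1 and Nsdhl, which have several CCAAT boxes, are shown beside those of Tm7sf2, the gene with the steepest decrease, and of Dhcr7, which has none. They run 5′ to 3′ on the strand of the gene and end at the last base before the gene as RefSeq annotates it, with the CCAAT box and the GC box of either strand in capitals. In Nsdhl and Tm7sf2 the annotated gene begins ahead of the start used for the search, so these stretches are shorter (71 and 99 bases), and those of Msmo1 and Nsdhl do not hold all of their CCAAT boxes. In GRCr8 they lie at chr16:29746983-29747112 (plus strand), chrX:155817230-155817300 (plus strand), chr1:212789573-212789671 (minus strand) and chr1:208444304-208444433 (plus strand). In Dhcr7 a pair of GC boxes overlaps, and none of the CCAAT boxes overlaps another motif.
Msmo1: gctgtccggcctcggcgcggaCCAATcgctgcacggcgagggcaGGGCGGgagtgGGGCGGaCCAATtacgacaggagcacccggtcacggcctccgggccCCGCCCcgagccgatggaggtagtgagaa
Nsdhl: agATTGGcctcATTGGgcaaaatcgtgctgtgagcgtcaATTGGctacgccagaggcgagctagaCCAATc
Tm7sf2: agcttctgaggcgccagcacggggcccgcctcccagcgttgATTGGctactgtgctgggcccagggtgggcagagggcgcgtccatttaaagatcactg
Dhcr7: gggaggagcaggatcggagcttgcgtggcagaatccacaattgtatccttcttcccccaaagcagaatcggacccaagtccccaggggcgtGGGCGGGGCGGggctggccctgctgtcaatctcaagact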

How the data were processed

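RNA of 12 libraries was measured by sequencing. The authors name FastQC and STAR, and per the file headers the deposited counts are whole read pairs per gene from featureCounts 2.0.0, on exons of Ensembl release 112 for mRatBN7.2, reversely stranded, with both ends mapped and without multi-mapping, multi-overlapping or chimeric pairs. Pairs marked as duplicates were left out, and whether any had been marked is not given in the sources used here. The counts are neither normalized nor filtered. No other gene overlaps the 9 on their strand.

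Genes averaging 5 counts or more, 13348 in all, were fitted in edgeR 4.0.16 (R 4.3.3, limma 3.58.1), with TMM normalization, the quasi-likelihood test and 1 mean for each of 4 groups. Benjamini-Hochberg adjustment ran over all of them. A call needs an adjusted p no larger than 0.05 and a log2 fold change of 0.59 or more in size. The standard error is the size of the log2 fold change over the root of F, and 95% intervals use the total degrees of freedom. The calls were tested on simulated data. Symbols came from a join of the study's list to the counts by mean normalized count and chromosome, which gave 1 gene for 1744 of 1786 entries. Of 1327 entries with 1 gene by the mean alone, 1326 lay on the chromosome in RefSeq (GRCr8). The join gave the same gene for 3 of the 3 found by coordinates.

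Named genes are the 9 enzymes, at most 4 genes per list by adjusted p in CTK2+GAL versus GAL, the 5 genes of nearest profile, and the cell type markers with a symbol. Some of these genes are not reported here. The members and lists were chosen with earlier results of these data known. Same-numbered CTL and GAL libraries deviated together from their group means, with correlations of 0.26, 0.26 and 0.60 over tested genes, so for GAL versus CTL a fit with the replicate number as a block was added. Replicates 1 and 2 of CTL and GAL also did so across numbers (0.23 and 0.15), and each deviated against replicate 3 of the other group. Alternatives were DESeq2 1.42.0, its size factors, total counts, other filters, a block, 2-group fits, no fold threshold and each library left out. Protein sequences were not used here.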

Additional observations from a re-analysis of the deposited data

How the results depend on the processing

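All 9 enzymes were called lower in CTK2+GAL versus GAL under each of 22 alternatives, and their log2 fold changes moved by at most 0.086. The count of genes called there was 2324 and lay between 2032 and 2412 with 1 library left out. Without the fold threshold it was 5290, and in CTK-2 versus CTL 5213 genes passed against 2311 with it. The 13 other pathway genes called lower kept that count throughout. With the replicate block the calls in CTK2+GAL versus GAL numbered 2321, 9 of them enzymes. Same-numbered libraries of the other groups deviated together less, down to a correlation of -0.0027. The labels do not state whether a shared number there marks a shared preparation. The block changed no call of an enzyme. CTL and GAL as pairs (a replicate block, chosen after seeing the data) gave 0 calls.

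Without a filter on low counts, 2 genes were called in GAL versus CTL, 1 for galinex over both backgrounds and 4 in the interaction. Without CTL replicate 3 and GAL replicate 3, chosen after seeing the data, these were 3, 0 and 6. None of them was an enzyme or has a symbol here. The fit without a filter has 167704 total degrees of freedom, against at most 17.6 in the fit with the filter, so its spread between libraries is hardly estimated gene by gene and its extra calls may rest on that. The fit without the 2 libraries has at most 31.7. The cause was not tested. Fits of only the groups compared give no value for the last 2 contrasts. Levels per length changed by -1.35 to 1.19% with total counts, 4 of 36 by more than 1 SD. Values of the enzymes for galinex over both backgrounds took the other sign in 1 of 189 cases, those of GAL versus CTL in 4 of 207, those of CTK2+GAL versus CTK-2 in 7 of 198 and those of the interaction in 29 of 189, and none was called. With 3 libraries a group and as few as 89 counts for Tm7sf2, its intervals were the widest of the 9, and detection of small differences was not measured.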
